A study of Mus musculus with 48 samples.

Results

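The hepatocyte program described here is a set of 766 genes, of 46517 counted, that are present in hepatocyte preparations and hardly in the iris. A gene was included when its mean level over 3 preparations of freshly isolated hepatocytes was at least 10 TPM (counts per gene length, scaled to one fixed total in every sample) and its mean level in naïve iris was under 10% of that. Without the limit on iris, 7934 genes reached the hepatocyte level. These genes were followed from isolated hepatocytes to liver spheroids that had been engrafted in the anterior chamber of the eye (ACE) for 2 months.

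The 5 explants (numbered 1, 2, 4, 5 and 6) were engrafted spheroids dissected from eyes of recipient mice at 2 months post-tx together with the iris around them. The 3 hepatocyte preparations were primary liver cells enriched for hepatocytes after collagenase perfusion, the starting material of the spheroids. Livers (n = 3), spheroids kept in vitro (n = 2) and naïve irises (n = 3) serve below only as reference. According to the labels all mice were wild-type albino animals of the strain C57BL/6N, and no treatment is listed. The study's methods speak of adult mice of both sexes and of albino B6/J mice, and do not assign a sex or a donor to each sample. *Xist*, the RNA that coats the inactive X chromosome in females, reached at most 0.335 TPM in any of the 16 samples, while 4 Y-linked genes summed to between 87.6 and 224 TPM in each. The study speaks of biological replicates, but the labels and methods do not tie each numbered sample to an animal; p-values measure the spread between these samples.

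Each explant was a mixture. Iris tissue was taken to make up 82, 68, 81, 72 and 59% of explants 1, 2, 4, 5 and 6, shares that came with the definition of the gene set. That share of the mean iris profile was removed from each before comparison. Least squares on the mean iris and hepatocyte profiles gave higher shares, 86.0, 73.5, 83.7, 77.9 and 66.1%. Total counts were 5449589 to 6789648 per explant and 2718518 to 3573075 per hepatocyte preparation, but before the removal the program genes took only 4.36 to 9.94% of an explant's TPM, against 27 to 29% in hepatocytes. In the mixed tissue, fewer hepatocytes and less RNA per hepatocyte cannot be told apart. A few samples stand apart in ways that touch results below: liver 1, which is low in male-biased genes, hepatocyte preparation 2, which is low in several periportal genes, and explant 1, which has the lowest program level and the largest iris share.

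Hepatocytes export much of what they transcribe: carrier proteins, lipoproteins, clotting factors, complement and protease inhibitors of the blood plasma. They also detoxify steroids and drugs with cytochromes P450 and conjugating enzymes, make bile acids and urea, and divide these tasks between the portal and the central side of the lobule. A network of transcription factors that includes HNF4A, the FOXA proteins and ONECUT1 maintains this identity. In the mouse, pulsatile growth hormone acting through its liver receptor adds a male-biased layer that includes the major urinary proteins, small lipocalins that carry pheromones into urine.

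The members were chosen by their TPM in the same 3 hepatocyte preparations and in the irises, so the overall level of the set is given as a description. At its limits, *Pde4c* entered at a mean of 10.4 TPM in hepatocytes and *Cyp2a22* missed at 9.99, while *BC028777* entered with iris at 9.99% of hepatocytes and *Acss2os* missed at 10.1%. *Alb*, *Ttr*, *Apoa1*, *Trf*, *Glul* and *Igf1* were not members, because their iris level was 10% or more of that in hepatocytes. Some markers of other cells were members: 3 of Kupffer cells, 3 of liver sinusoidal endothelium and 1 of erythroid cells. All 766 genes passed the later filter on low values (a mean of 1 TPM in either group) through their hepatocyte level. Of the members, 615 were protein-coding and 54 were annotated as antisense, and reads of antisense genes cannot be told from those of their partners in unstranded counts.

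The program stood at a lower level in every explant than in any hepatocyte preparation. The median of log2(TPM + 1) over the 766 genes was 5.85, 6.50, 6.38, 6.38 and 6.65 in explants 1, 2, 4, 5 and 6, a mean of 6.35 ± 0.30 (SD, n = 5). In hepatocyte preparations 1 to 3 it was 7.38, 7.35 and 7.30, a mean of 7.34 ± 0.043 (SD, n = 3). The groups did not overlap; on this scale the explants lay wholly above the hepatocytes for 21.4% of all genes tested and wholly below for 8.05%. All explants were also below the livers (6.93, 7.24 and 7.29), and their range took in both in vitro spheroids (5.99 and 6.44). Most members were still transcribed: 604 to 654 of them exceeded 10 TPM in each explant, against 737 to 749 in each hepatocyte preparation, and 24 to 67 were at 0 after iris removal, against 2 to 5.

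**Figure D1:**
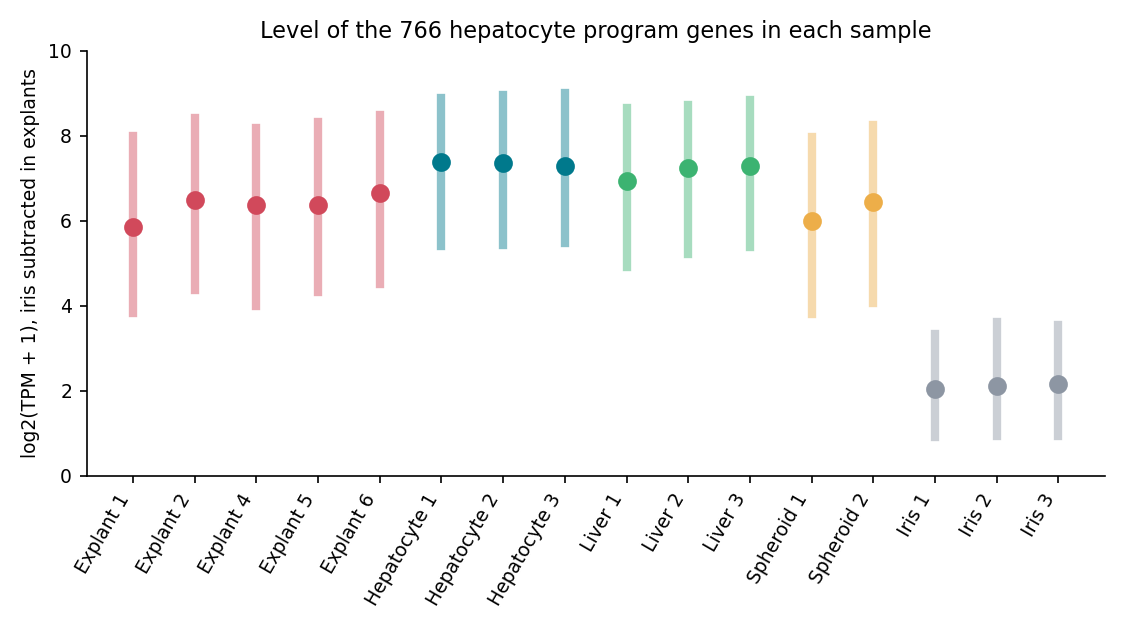
Level of the 766 hepatocyte program genes in each sample as log2(TPM + 1), with iris subtracted in the explants; each point is the median over genes and each bar runs from the lower to the upper quartile. The 5 explants (medians 5.85 to 6.65) sit below the 3 hepatocyte preparations (7.30 to 7.38) and the livers, and the irises sit near 2.

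On this TPM scale the median log2 difference between explants and hepatocytes was -0.83, and 638 of the 766 genes were below 0. With limma, at an adjusted p under 0.05 and a log2 difference over 1, 11 members were higher in explants and 219 lower; among all 22612 genes tested, 14% were called higher and 3.05% lower. Since hepatocyte level chose the members, nothing is read from the difference between these shares. Without hepatocyte preparation 1, 2 or 3 the number lower was 125, 107 and 113, and without explant 4 the number higher was 17. The estimate also moved with the iris share: the median was -0.53 with every share raised by 0.05 as a fraction and -1.07 with every share lowered by as much.

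TPM is a share of all transcripts, and transcripts of other cells were among them. The 10 macrophage markers summed to 2993 to 7475 TPM in the explants after iris removal, against 180 to 311 in hepatocytes and 898 to 956 in the iris, with 9 of 10 called higher and none at 0 in either group. The 7 cholangiocyte markers summed to 688 to 1571 TPM against 33.8 to 50.7 in hepatocytes and 928 to 1044 in the iris, with 6 called higher. *Spp1* was the largest of them in every explant, at 1065, 559, 365, 660 and 915 TPM in explants 1, 2, 4, 5 and 6. The marker not called was *Krt19*, at 231, 18.6, 189, 0 and 25.9 TPM. The 7 markers of liver sinusoidal endothelium summed to 34.2 to 210 TPM against 78.7 to 248, with 2 called lower. Markers of other cells went in both directions. Kupffer cell markers (7) summed to 51.8 to 387 TPM against 117 to 222 TPM, with none higher and 1 lower. Erythroid markers (6, of which 5 were tested) summed to 29.6 to 248 against 337 to 342 TPM, with 1 lower. That gene was *Alas2*, which made up most of the hepatocyte sum (284, 313 and 305 TPM) and had 29.6 to 109 TPM in explants. None of the globin genes was called. Stellate cell markers (8) summed to 523 to 962 TPM against 129 to 202 TPM, with 3 higher. The iris had 1794 to 1932 TPM of them, above the 1434 to 1675 TPM of the explants before iris removal. The stellate sum is thus what remained after a larger iris signal was subtracted. *Lrat* of this list was at 0 in every explant. Lymphocyte markers (8, of which 6 were tested) summed to 35.4 to 480 against 2.85 to 8.50 TPM, with 3 higher. The 10 iris and lens markers were left at 229 to 3614 TPM after the subtraction, against 626 to 667 in hepatocytes and 10288 to 11000 in the iris, with 1 of 6 tested called higher, so the remainder differed widely between explants. Among them *Cryba2*, *Crygs* and *Cryaa* were at 0 in every explant and *Foxc1* and *Crygs* in every hepatocyte preparation. The part of these cells in the lower TPM of hepatocyte genes was not tested.

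To compare the genes with each other, each sample was then centered on its own median over the 766 genes. On this program scale a value of 0 is a gene at the middle of the program in its sample, and a difference says how a gene moved relative to the program. The members spread in both directions: 113 were called higher in explants, 78 lower and 575 neither (limma; all genes tested on the same scale, 40% higher and 1.03% lower), with 490 members within 1 log2 unit of no difference. The explants lay wholly above the hepatocytes for 220 members and wholly below for 114 (all genes, 57.9 and 1.68%). The split was another one in edgeR on counts before iris removal, with 66 higher and 112 lower with TMM factors over the program genes, and 59 and 117 with RLE factors. That fit differed in iris removal, scaling, model and the genes adjusted over, and the part of each was not tested. Without hepatocyte preparation 1, 2 or 3 the number lower was 48, 37 and 40. Members varied more between explants than between preparations, with a median SD of 0.41 log2 units against 0.25. Markers of other cells were among the members called lower: *Clec4f* (Kupffer cells), *Clec4g* (sinusoidal endothelium) and *Alas2* (erythroid). *Cd5l* and *Vsig4* of Kupffer cells and the endothelial *Dnase1l3* were not called.

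Abundant members stood higher than rare ones; since hepatocyte level formed these classes, they are described without a test. The median program-scale difference was -0.30 over the 134 members at 10 to 30 TPM in hepatocytes, -0.0041 over the 165 at 30 to 100 TPM, 0.062 over the 182 at 100 to 300 TPM, 0.33 over the 209 at 300 to 1000 TPM and 0.65 over the 76 above 1000 TPM. In the livers the same medians stayed between -0.023 and 0.080, and in the in vitro spheroids they ran from 0.11 to 0.52. Among the 76 most abundant genes 22 were called higher and 3 lower.

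**Figure D2:**
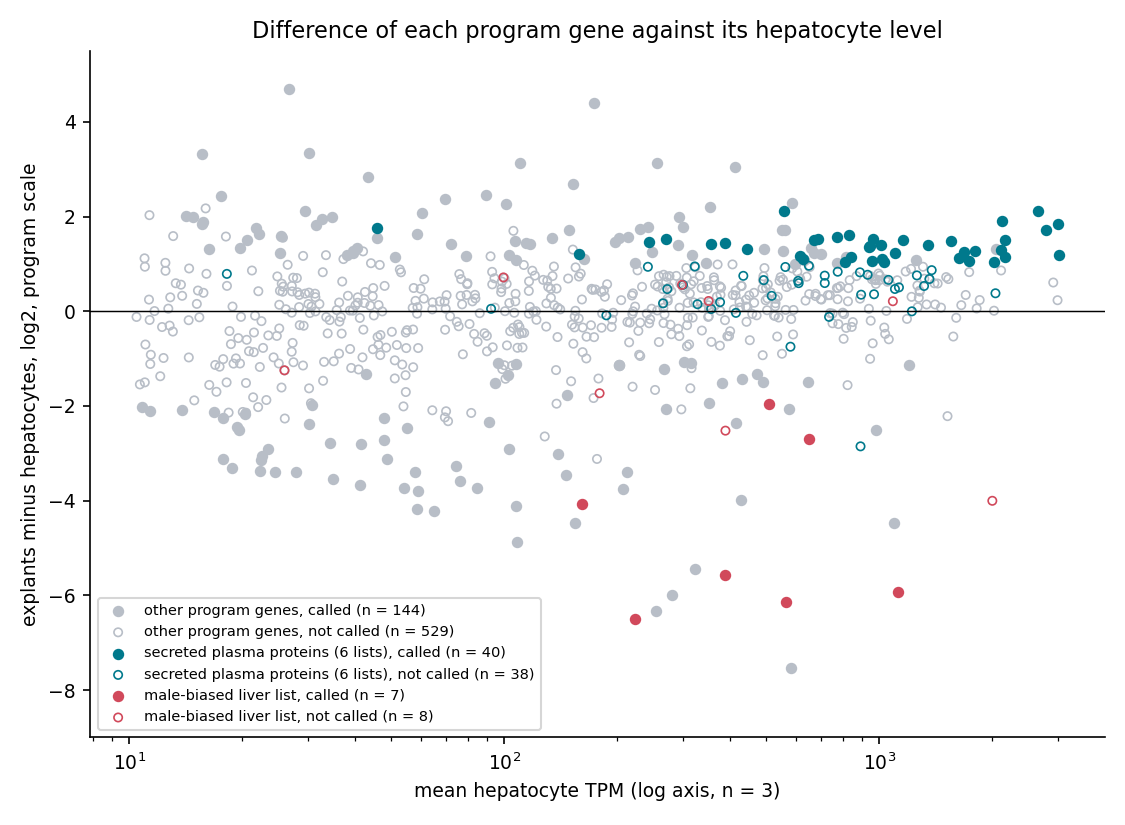
Each of the 766 program genes by mean hepatocyte TPM (log axis, n = 3) and by its difference between explants and hepatocytes in log2 units on the program scale; colors mark secreted plasma proteins, male-biased genes and the remaining members. The secreted genes gather at the right above 0, and the male-biased genes reach down to -6.49.

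Genes of secreted plasma proteins lay at the upper end. Of 80 members in 6 lists (carrier proteins, apolipoproteins, coagulation, complement, Serpina inhibitors and acute phase), 40 were called higher on the program scale and none lower, with a median difference of 0.99 against 0.073 over the other 686 members. Of those 686, 73 were called higher and 78 lower. Among all genes tested on this scale 40% were called higher, and for 57.9% the explants lay wholly above the hepatocytes. These shares belong also beside the list counts below, which are a description. On the TPM scale the median of the 80 secreted genes was 0.00070, with 1 called higher and 4 lower, against a median of -0.92 over the other members. Within the class above 1000 TPM the 29 secreted genes had a median of 1.14 and the 47 others 0.30, and below 300 TPM the 12 secreted genes had 0.75 and the 469 others -0.046. The in vitro spheroids, never engrafted, also stood above hepatocytes in most of these lists. Their medians were 1.05 for carriers, 0.99 for apolipoproteins, 1.09 for Serpina inhibitors and 0.60 for coagulation. For complement the spheroid median was 0.23 and for acute phase -0.28, against 0.23 over all program genes.

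Hemopexin led the carriers. *Hpx*, which binds free heme in plasma (chromosome 7, 105591613 to 105600116, mm10), had 7943, 5621, 5967, 5007 and 4574 TPM in explants 1, 2, 4, 5 and 6 and 2532, 2383 and 3059 TPM in the hepatocyte preparations. Every explant exceeded every preparation. The mean was 2.19-fold higher in TPM, and the program-scale difference was 2.11 ± 0.30 log2 units (SE, adjusted p = 0.000761). It was the only one of the 80 called higher on the TPM scale as well.

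*Ahsg*, which encodes fetuin A, a carrier of calcium phosphate, had 6283, 4973, 7026, 4716 and 4223 TPM in explants against 2741, 2923 and 3320 TPM in hepatocytes, a program-scale difference of 1.83 ± 0.27 (SE, adjusted p = 0.000985). *Gc*, the vitamin D binding protein, had 3764 to 5819 TPM against 2616 to 3086 TPM and differed by 1.72 ± 0.27 (SE, adjusted p = 0.00134). *Ambp*, the precursor of a plasma lipocalin and of bikunin, had 2782 to 3503 TPM against 2025 to 2394 TPM and differed by 1.51. In each of these carriers the lowest explant was above the highest preparation. Of the 14 carriers, 9 were called higher and none lower, and for 13 the groups did not overlap on the program scale.

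Haptoglobin, an acute phase protein that binds free hemoglobin, went the same way: *Hp* had 5192, 3678, 4289, 3667 and 3327 TPM in explants and 1913, 2041 and 2434 TPM in hepatocytes, a program-scale difference of 1.90 ± 0.28 (SE, adjusted p = 0.000903). The list of 10 acute phase members was divided, with 4 higher, none lower and a range from -2.85 to 1.90. Its lowest member was *Hamp*, which encodes the iron hormone hepcidin. *Hamp* had 7.95, 786, 62.4, 13.5 and 134 TPM in the explants against 1075, 817 and 782 TPM in hepatocytes, and did not pass the test (-2.85 ± 1.13, SE, adjusted p = 0.063). Explant 2 was close to the preparations and the other 4 were far below them; without explant 2 the difference was -3.74 and passed (adjusted p = 0.00529).

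The 3 fibrinogen chains moved as a block: *Fga* was 1.27, *Fgb* 1.4 and *Fgg* 1.29 log2 units higher on the program scale (adjusted p = 0.00221, 0.00266 and 0.00259), *Fga* and *Fgb* being named after their values were seen. In TPM their excess was small, for *Fgg* 2279 to 2995 against 1831 to 2450 TPM, with overlapping ranges. In edgeR *Fga* and *Fgg* fell under the fold limit, with 0.89 and 0.91 (TMM). In all, 10 of 19 coagulation genes were higher and none lower (median 1.04), among them *Kng2*, a kininogen that releases bradykinin (440 to 500 TPM against 314 to 388 TPM). *Kng2* was 1.41 higher on the program scale and, like *Fga* and *Fgg*, fell under the fold limit in edgeR (0.98 with TMM).

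Among apolipoproteins, which carry lipids in plasma, 8 of 11 were higher and none lower (median 1.06). *Apoa2*, of high density lipoprotein, had 3016 to 3787 TPM in explants and 2763 to 3279 TPM in hepatocytes, a difference of 1.2 on the program scale (adjusted p = 0.00222). With an adjustment for abundant genes described below it fell under the fold limit (0.96). *Apoa4* differed by 2.13 ± 0.51 (SE, adjusted p = 0.0098), with 754, 1459, 700, 777 and 1019 TPM in explants against 1111, 158 and 399 TPM in hepatocytes; its preparations were far apart, the difference was 2.82 without preparation 1 and 1.44 without preparation 2, and in edgeR it did not pass (adjusted p = 0.0633 with TMM and 0.0671 with RLE).

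Complement moved less as a whole, with 4 of 16 higher, none lower and a median of 0.53. *C3*, the central component, had 2675, 2390, 1795, 2088 and 2114 TPM against 1499, 1521 and 1650 TPM, and *Cfi*, the protease that inactivates it, 1306 to 1519 TPM against 875 to 1013 TPM. Their program-scale differences were 1.49 and 1.53 (adjusted p = 0.00154 and 0.000254). Of 12 Serpina inhibitors 6 were higher and none lower (median 0.99). *Serpina10*, an inhibitor of activated factor X, had 320 to 456 TPM against 264 to 276 TPM, whereas *Serpina3k*, the most abundant of the list, had 1090 to 1764 TPM against 1674 to 2345 TPM and a difference of 0.38 (adjusted p = 0.129).

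Very abundant genes reached up to 1.41 counts per base in single libraries (*Hpx*). Duplicate reads had been removed, and whether the counts of such genes were limited by this was not tested. Under an adjustment that assumes at most 2 countable read starts for each base, list medians were 1.19 for carriers, 0.96 for apolipoproteins and 0.99 for coagulation. The medians were 0.98, 0.74 and 0.64 in edgeR (TMM) on counts before iris removal.

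**Figure D3:**
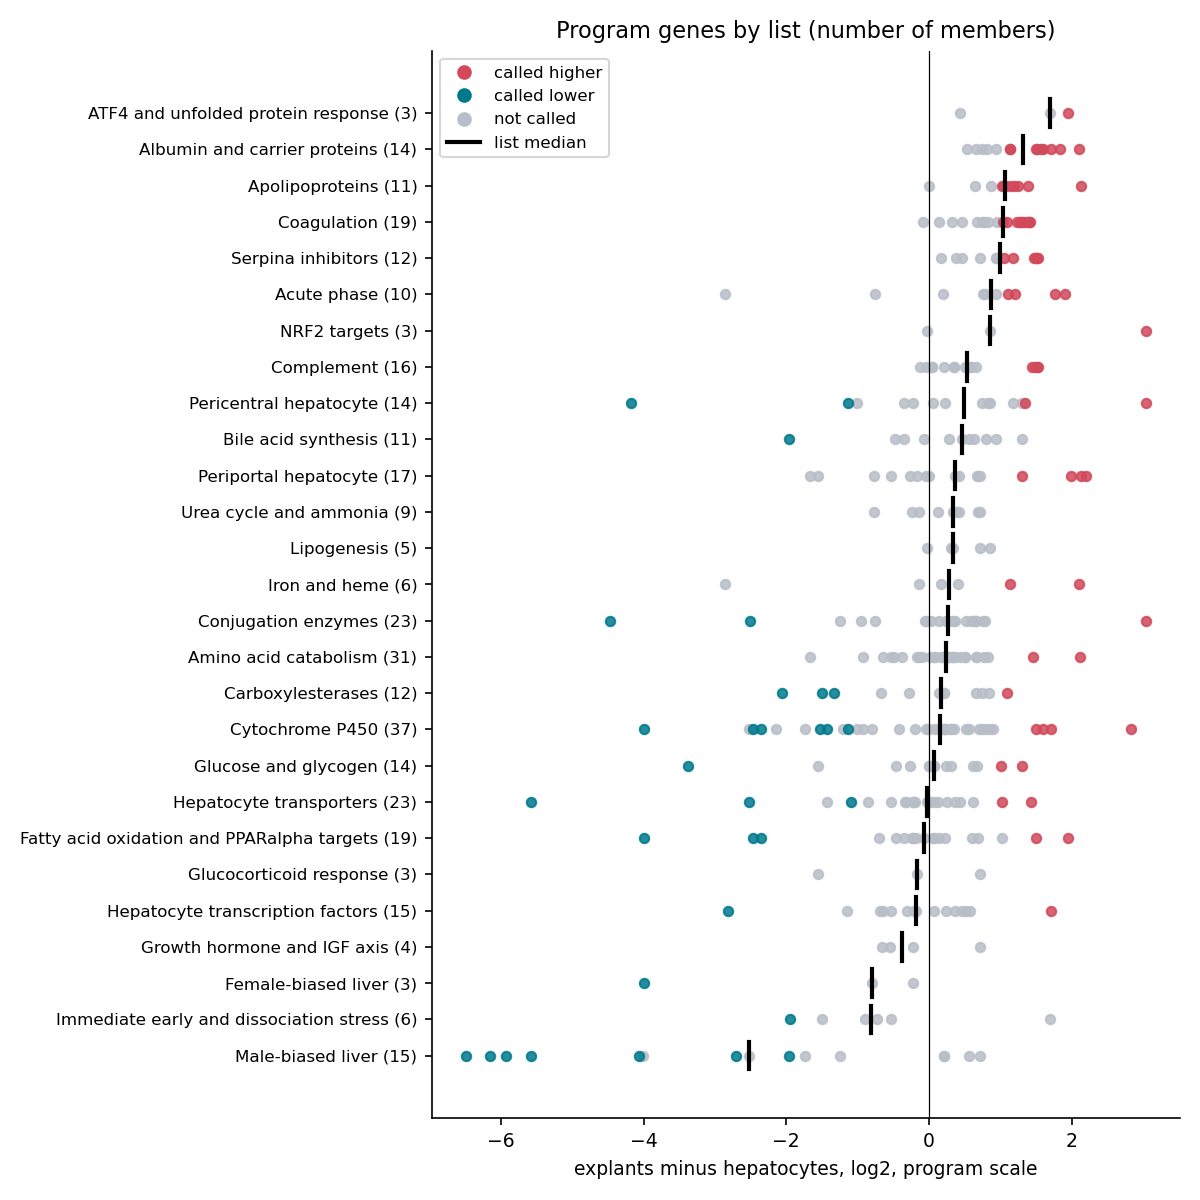
Program-scale log2 difference between explants and hepatocytes for the members of each gene list, sorted by list median (black bar); the number of members stands beside each name and colors mark genes called higher, lower or neither. The lists of plasma proteins lie near the top with no gene called lower, and the male-biased list lies at the bottom with a median of -2.52.

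The genes furthest below the program belonged largely to the male-biased layer. Of 15 male-biased members, 7 were called lower, none higher, and 10 lay below all hepatocyte preparations; the median difference was -2.52, and -1.43 without iris subtraction. Among the 25 members with a Mup name, 18 were lower and none higher, with a median of -3.39. The 11 male-biased genes that are not Mup genes had 4 lower and a median of -1.73. On the TPM scale the medians of these 3 groups were -3.52, -4.38 and -2.73.

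Mup genes are near copies of each other on chromosome 4, and their promoters show it. Of the 766 members 513 had a promoter sequence in RefSeq (250 bases before to 50 after the start, GRCm38.p6). *Mup11* (chr4:60662346-60662645, minus strand) and *Mup17* (chr4:61595783-61596082, minus strand) are printed as the Mup genes with the most negative differences, and *Slco1a1* (chr6:141946913-141947212, minus strand) as a strongly reduced gene of another family. Capitals mark ATCAAT, a core of sites bound by ONECUT1, searched on both strands together with TTCNNNGAA (STAT), TTGCNNAA (C/EBP) and CAAAGTCCA (HNF4A).
Mup11: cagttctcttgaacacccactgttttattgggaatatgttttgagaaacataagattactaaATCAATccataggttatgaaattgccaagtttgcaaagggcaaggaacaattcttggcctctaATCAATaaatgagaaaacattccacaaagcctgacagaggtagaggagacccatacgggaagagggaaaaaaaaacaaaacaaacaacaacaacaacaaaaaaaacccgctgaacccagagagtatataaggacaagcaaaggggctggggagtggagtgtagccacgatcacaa
Mup17: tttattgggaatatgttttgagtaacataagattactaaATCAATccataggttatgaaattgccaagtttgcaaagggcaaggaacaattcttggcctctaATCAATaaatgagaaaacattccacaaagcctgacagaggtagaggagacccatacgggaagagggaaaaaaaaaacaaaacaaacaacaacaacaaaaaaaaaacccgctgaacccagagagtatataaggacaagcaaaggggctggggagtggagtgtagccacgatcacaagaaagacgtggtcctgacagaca
Slco1a1: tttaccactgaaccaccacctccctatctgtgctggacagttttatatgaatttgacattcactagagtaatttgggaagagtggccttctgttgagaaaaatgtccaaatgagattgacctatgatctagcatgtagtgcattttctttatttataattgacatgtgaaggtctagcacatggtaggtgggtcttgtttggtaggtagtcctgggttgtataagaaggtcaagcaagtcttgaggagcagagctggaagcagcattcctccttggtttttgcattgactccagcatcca

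Shifted by 23 bases, the *Mup11* and *Mup17* windows were the same at 263 of 277 positions (94.9%), and ATCAAT stood in each at 2 places, from -188 and -125 in *Mup11* and from -211 and -148 in *Mup17*. None of these motifs was found in the *Slco1a1* window. ATCAAT was present for 8.63% of all genes with a promoter, 15.6% of program genes, 19.2% of members called higher and 35.6% of members called lower (16 of 45). All 10 Mup genes among those called lower held it, against 6 of the other 35 (17.1%). The STAT-type motif was present for 9.36% of program genes, 5.13% of those called higher and 4.44% of those called lower, against 9.55% of all genes. In the same order the C/EBP-type motif was present for 19.9, 25.6 and 15.6%, against 12.2% of all genes. The HNF1-type motif was present for 4.87, 3.85 and 2.22%, against 0.47%, and the HNF4A-type motif for 3.31, 1.28 and 2.22%, against 0.555%. These are counts of letters in short windows, and copies of one promoter are not independent of each other.

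*Mup11* was listed at 0, 0, 0, 0 and 1.51 TPM in explants 1, 2, 4, 5 and 6 and at 154, 306 and 209 TPM in the hepatocyte preparations (program-scale difference -6.49 ± 0.54, SE, adjusted p = 5.14e-05). *Mup17* was at 0, 5.91, 0, 0 and 0 TPM against 214, 393 and 153 TPM, and *Mup1* at 0, 0, 0, 6.06 and 4.32 TPM against 158, 405 and 275 TPM. Most of the zeros arose in the subtraction of iris, since *Mup11* had 6 to 12 counts in each explant and 5.12 TPM in the iris, so these fitted differences also depend on the pseudocount of 1. Before subtraction *Mup11* differed by -3.19, *Mup17* by -2.44 and *Mup1* by -3.59. *Mup21*, named after its values were seen, kept a measurable level of 20.1, 41.2, 71.3, 73.6 and 61.1 TPM against 678, 505 and 762 TPM. Reads shared by several Mup genes were not counted, so single members of the family are uncertain.

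Not every Mup gene was low. *Mup20*, which encodes the male pheromone darcin and was no member because of its level in iris, had 832, 1302, 1114, 1305 and 1047 TPM in explants and 945, 883 and 1145 TPM in hepatocytes, with overlapping ranges. *Gm13775* and the pseudogene *Mup-ps16*, which lies within it, were both among the 10 lowest, but reads in their overlap were counted for both.

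The male-biased genes outside the Mup family included enzymes and a transporter. *Hsd3b5*, a steroid ketoreductase, had 6.10, 1.88, 4.19, 0.44 and 3.15 TPM in the explants and 267, 790 and 640 TPM in hepatocytes (-6.15 ± 0.67, SE, adjusted p = 0.000184). *Elovl3*, an elongase of very long chain fatty acids, had 0, 29.3, 3.47, 38.7 and 6.54 TPM against 501, 1331 and 1545 TPM (-5.93 ± 1.0, SE, adjusted p = 0.00187). *Slco1a1*, an uptake transporter for organic anions, had 0, 1.5, 17.4, 2.16 and 6.45 TPM against 321, 443 and 398 TPM (-5.58 ± 0.75, SE, adjusted p = 0.000596). For each of these genes the highest explant was far below the lowest preparation. Before iris removal the differences were smaller, at -4.53, -4.05 and -4.07, and all 3 were still called; without explant 1 *Elovl3* differed by -5.29.

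*Cyp7b1*, a hydroxylase of oxysterols, was milder, at 64.0, 63.8, 106, 35.7 and 52.6 TPM against 274, 651 and 604 TPM (-1.96 ± 0.45, SE, adjusted p = 0.0078), and did not pass in edgeR before iris removal (-0.93, adjusted p = 0.0652 with TMM). *Cyp4a12a*, a male-biased fatty acid hydroxylase named after its values were seen, had 0.429, 65.7, 41.7, 127 and 85.3 TPM against 355, 439 and 372 TPM and did not pass the test (-2.52, adjusted p = 0.0867). Explant 1 was the lowest here, as in the list as a whole, and without it *Cyp4a12a* was called lower (-1.51, adjusted p = 0.0127). It was also called lower before iris removal (-1.92, adjusted p = 0.000112), in edgeR (-1.89, adjusted p = 0.0129 with TMM) and with every iris share lowered by 0.05 (adjusted p = 0.0461).

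The level of the male-biased list relative to the program was -1.76, -1.10, -1.0, -1.07 and -0.90 in the explants and 0.68, 1.44 and 1.34 in the hepatocyte preparations. It was -2.08 and -2.54 in the in vitro spheroids, so the spheroids that were never engrafted were lower still. Livers 2 and 3 had 0.98 and 1.06, but liver 1 had -1.75. Liver 1 also held 307 TPM of *Cyp2b9* and 248 TPM of *Cyp2a4*, female-biased P450 genes that livers 2 and 3 had at no more than 1.64 TPM, although its labels do not set it apart.

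Those female-biased genes are no members of the program, since hepatocytes lack them, and were picked after their values were seen. *Cyp2a4* had 64.6, 42.6, 33.9, 39.8 and 119 TPM in the explants and 2.85, 2.78 and 0 TPM in hepatocytes, and *Cyp2b9* 8.14, 17.2, 45.1, 6.47 and 8.22 TPM against 1.49, 0.424 and 0 TPM. The in vitro spheroids, never engrafted, had 70.8 and 57.7 TPM of *Cyp2a4* and 32.4 and 19.3 TPM of *Cyp2b9*. Of 17 tested female-biased genes outside the program 4 were called higher and none lower on the TPM scale; of the 3 inside it, 1 was called lower.

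**Figure D4:**
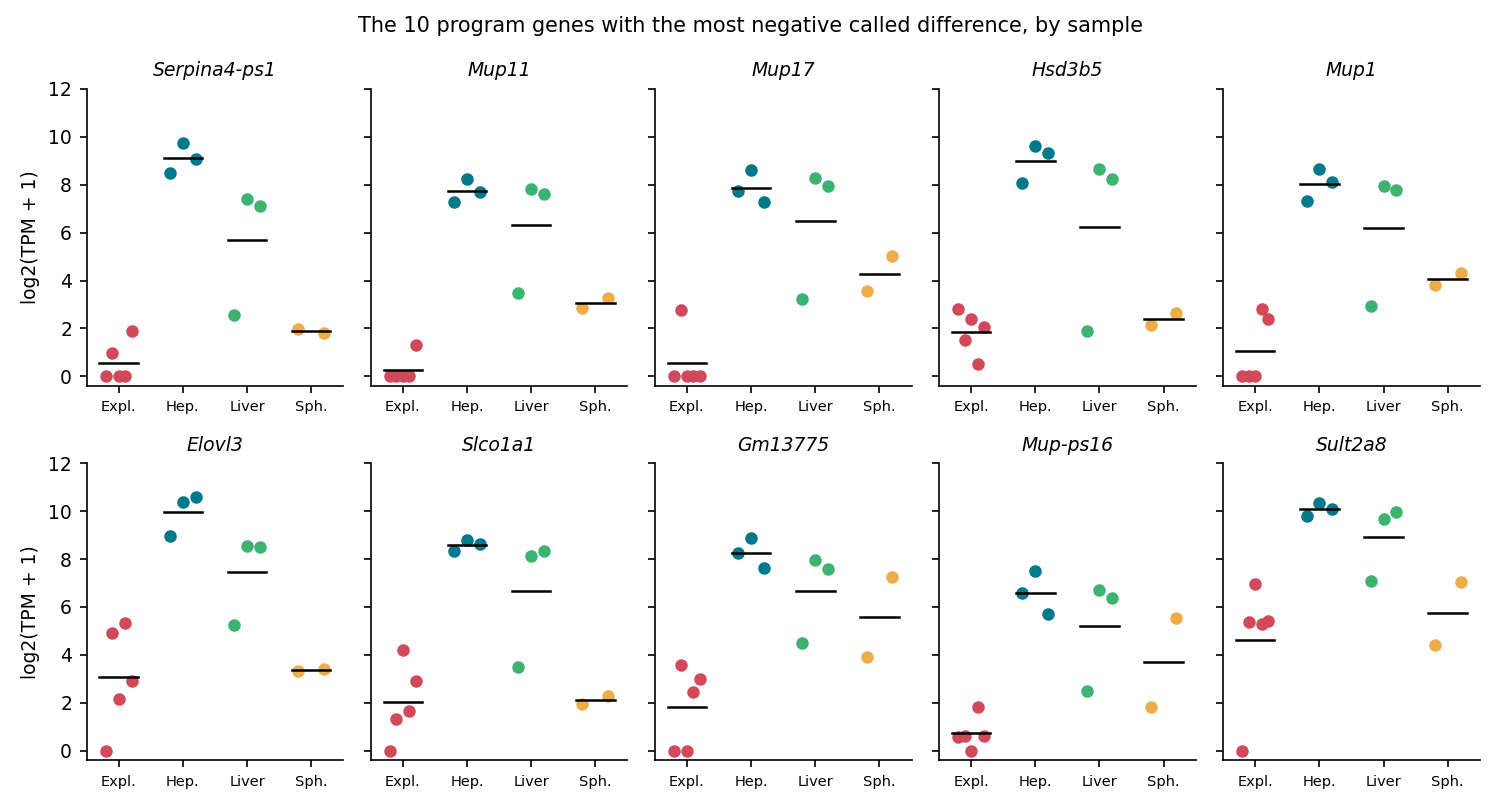
The 10 program genes with the most negative called difference, as log2(TPM + 1) in each explant, hepatocyte preparation, liver and in vitro spheroid; the black bar is the group mean. Explants lie below all hepatocyte preparations in each panel, 2 livers lie nearest the hepatocytes and liver 1 lies lower.

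The lowest gene of all was *Serpina4-ps1*, a pseudogene of the Serpina cluster on chromosome 12 (104080649 to 104086724, mm10). It had 0, 0.961, 0, 0 and 2.72 TPM in explants and 359, 853 and 538 TPM in hepatocytes (-7.53 ± 0.56, SE, adjusted p = 2.77e-05), with 4.87, 168 and 139 TPM in the livers; before iris removal it differed by -5.27. *Sult2a8*, a sulfotransferase, had 0, 40.2, 124, 37.7 and 41.8 TPM against 895, 1311 and 1074 TPM (-4.48 ± 1.15, SE, adjusted p = 0.0133). Explant 1 was the only explant at 0, and without it the difference was -3.45. The call was lost without hepatocyte preparation 2 (adjusted p = 0.0521) and with a pseudocount of 0.1 (adjusted p = 0.059). Of the 78 members called lower, 19 were at the floor of 3 counts, or no higher than iris explains, in every explant.

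The receptor that reads growth hormone was less affected. *Ghr* had 36, 49.8, 89.1, 69.1 and 63.2 TPM in explants and 161, 192 and 167 TPM in hepatocytes, lower on the TPM scale (-1.54) and not called on the program scale (-0.55 ± 0.30, SE, adjusted p = 0.15). *Igfals*, the liver subunit of the circulating IGF complex, had 54.8, 83.5, 46.7, 68.3 and 97.7 TPM against 227, 201 and 217 TPM (program scale -0.66, adjusted p = 0.0779). For both genes every explant was below every preparation in TPM. None of the 4 members of the growth hormone and IGF axis was called on the program scale.

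Among 15 hepatocyte transcription factors 1 was higher and 1 lower. *Onecut1* had 0.117, 4.47, 2.42, 2.17 and 2.74 TPM in explants against 44.4, 45.4 and 34.3 TPM in hepatocytes, a program-scale difference of -2.81 ± 0.55 (SE, adjusted p = 0.00375), or -1.76 before iris removal. Livers had 11.5, 15.1 and 22.1 TPM and in vitro spheroids 9.43 and 3.13 TPM, so the isolated hepatocytes were the highest samples. *Foxa3*, a pioneer factor of liver genes, had 180, 227, 307, 235 and 281 TPM against 186, 131 and 128 TPM (1.72 ± 0.23, SE, adjusted p = 0.000619). It was higher still in the in vitro spheroids, at 315 and 369 TPM. *Hnf4a*, the master regulator of hepatocyte genes, had 108, 139, 123, 96.2 and 134 TPM against 223, 233 and 159 TPM. Relative to the program it differed by 0.23 ± 0.26 (SE, adjusted p = 0.459), and by -0.18 in edgeR with TMM.

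Detoxifying enzymes were divided within their families. Of 37 P450 members 4 were higher and 6 lower, with a median of 0.15. *Cyp2c55* had 209, 181, 48.5, 142 and 221 TPM in explants and 29.5, 73.3 and 27 TPM in hepatocytes (2.84 ± 0.57, SE, adjusted p = 0.00427), while the in vitro spheroids had 8.76 and 2.82 TPM. *Cyp3a11*, the main drug oxidizing P450 of mouse liver, had 808 to 1070 TPM against 477 to 665 TPM (1.72, adjusted p = 0.00112). In the other direction *Cyp4a10*, an ω-hydroxylase of fatty acids, had 17.6, 85.5, 40.2, 19.4 and 63.4 TPM against 308, 603 and 330 TPM (-2.36, adjusted p = 0.00411). *Cyp3a11* and *Cyp4a10* were named after their values were seen. *Cyp2e1*, which oxidizes ethanol, had 1272, 1178, 4486, 1728 and 1400 TPM against 2449, 3332 and 3187 TPM (0.23, adjusted p = 0.639); explant 4 alone exceeded the hepatocytes, and without it the difference was -0.10.

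Of 23 conjugating enzymes 1 was higher and 2 lower. The higher one was *Gstm3*, a glutathione transferase, with 2351, 1662, 1003, 1675 and 1672 TPM in explants and 343, 612 and 283 TPM in hepatocytes, 4.05-fold higher in TPM (program scale 3.04 ± 0.37, SE, adjusted p = 0.000354). The in vitro spheroids had 924 and 1195 TPM of *Gstm3*. *Ugt2b1*, a glucuronosyltransferase named after its values were seen, was the second lower one beside *Sult2a8*, with 38.7 to 207 TPM against 601 to 1301 TPM. Of 12 carboxylesterases 1 was higher and 3 lower. *Ces3b* had 32.7, 75.6, 73.5, 78.2 and 98.7 TPM against 453, 628 and 642 TPM (-2.06 ± 0.27, SE, adjusted p = 0.000545). In the in vitro spheroids the carboxylesterase list had a median of -1.96, against 0.18 in the explants.

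Zonation lists followed neither direction as a whole. Of 14 pericentral members 2 were higher and 2 lower (median 0.49, and 0.092 without hepatocyte preparation 1), whereas the in vitro spheroids had a median of -1.31. *Slc1a2*, a glutamate transporter of the cells around the central vein, was listed at 0 in all explants but number 5 (0.291 TPM) and had 20.9, 138 and 16.8 TPM in hepatocytes (-4.17 ± 0.76, SE, adjusted p = 0.00274). It had 16 to 76 counts in the explants and 3.33 TPM in the iris, so the zeros arose in the subtraction; before it the difference was -1.50, and without hepatocyte preparation 2 it was -3.23. Of 17 periportal members 4 were higher and none lower (median 0.37 on this scale, -0.14 in edgeR with TMM). *Hsd17b13*, a lipid droplet enzyme, had 503, 753, 475, 667 and 706 TPM against 560, 75.2 and 426 TPM (2.21 ± 0.55, SE, adjusted p = 0.0116). Hepatocyte preparation 2 was low, and without it the difference was 1.32. In edgeR *Hsd17b13* passed with TMM (1.44, adjusted p = 0.048) and not with RLE (1.41, adjusted p = 0.0515).

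On the program scale few genes of bile acid synthesis and transport were called. Of 11 genes of bile acid synthesis only *Cyp7b1* was called on it, while on the TPM scale 3 were lower and none higher. *Cyp7a1*, the rate-limiting enzyme of the classical pathway, had 54.0, 148, 499, 147 and 189 TPM in explants and 256, 137 and 63.3 TPM in hepatocytes, with overlapping groups (1.30, adjusted p = 0.0914); before iris removal it passed (1.10, adjusted p = 0.022). Of 23 transporters 2 were higher and 3 lower on the program scale, and none higher and 11 lower on the TPM scale. *Slc10a1*, the bile acid uptake transporter NTCP, had 402, 589, 640, 472 and 672 TPM against 1617, 1513 and 1598 TPM, called lower on the TPM scale (-1.53) and under the fold limit on the program scale (-0.53, adjusted p = 0.0215). *Abcb4*, which exports phospholipid into bile, had 77.4 to 113 TPM against 61.8 to 87.3 TPM (program scale 1.43, adjusted p = 0.00298; 0.99 and under the limit in edgeR with TMM).

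On the program scale few genes of central metabolism were called. In TPM more of them were lower and none higher. The number lower was 2 of 9 for the urea cycle list and 6 of 31 for amino acid catabolism. It was 1 of 5 for the lipogenic members and 10 of 19 for fatty acid oxidation. None of 9 members of the urea cycle list was called on the program scale, and *Arg1*, its last enzyme, had 1120, 1725, 807, 1174 and 1452 TPM against 1761, 1055 and 1710 TPM (0.72, adjusted p = 0.0492, under the fold limit). Of 31 genes of amino acid catabolism 2 were higher and none lower; *Gnmt*, a glycine methyltransferase, had 560 to 1458 TPM against 1638 to 2053 TPM (0.24, adjusted p = 0.568). None of 5 lipogenic members was called, and *Scd1*, the stearoyl-CoA desaturase, had 1627 to 2498 TPM against 1730 to 2468 TPM. On the program scale *Scd1* was above all preparations in every explant (0.86, adjusted p = 0.0295, under the fold limit), and it was called with iris under 2% of hepatocytes (1.10, adjusted p = 0.0164). Of 19 genes of fatty acid oxidation 2 were higher and 3 lower, and *Fabp1*, the liver fatty acid binding protein, had 1616 to 2738 TPM against 2720 to 3166 TPM (0.61, adjusted p = 0.00957, under the fold limit).

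Of 14 genes of glucose and glycogen metabolism 2 were higher and 1 lower. The lower one, *Ppp1r3g*, which targets a phosphatase to glycogen, was at 0 TPM in every explant after iris removal and at 38.9, 11.4 and 16.8 TPM in hepatocytes. Taking 3 counts per explant, or the number observed where larger, as an upper limit, it was at least 6.95-fold lower in TPM. Before iris removal the difference was -0.95 and did not pass (adjusted p = 0.107). The lists of cholesterol synthesis and of the circadian clock had no member in the program.

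The genes furthest above the program came from no single list. *Ifi27l2b*, of a family induced by interferon (chromosome 12, 103450898 to 103457223, mm10), had 406, 337, 241, 386 and 440 TPM in explants and 29.5, 28.4 and 22.2 TPM in hepatocytes, 13.6-fold higher in TPM (program scale 4.69 ± 0.31, SE, adjusted p = 2.33e-05). It had 114, 52.2 and 16.3 TPM in livers and 149 and 113 TPM in in vitro spheroids. *H2-Q1*, a class Ib histocompatibility gene, had 82.2, 91.1, 51.8, 69.9 and 101 TPM against 24.2, 13.6 and 9.12 TPM (3.33 ± 0.41, SE, adjusted p = 0.000377), and as a member of a gene family it may share reads with its relatives. *Spon2*, a secreted matrix protein that recognizes microbes, had 123 to 172 TPM against 19.7 to 41.5 TPM (3.34 ± 0.32, SE, adjusted p = 9.85e-05) and 217 and 207 TPM in in vitro spheroids.

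*Cib3*, of a family of calcium- and integrin-binding proteins, had 1230, 1173, 657, 1327 and 1441 TPM in explants, 325, 19.7 and 175 TPM in hepatocytes and 4.71 and 9.97 TPM in in vitro spheroids. Its difference was 4.41 ± 0.74 (SE, adjusted p = 0.00185), with 3.23 without hepatocyte preparation 2 and 5.20 without preparation 1. *Tm4sf4*, a membrane protein with 4 spans, had 810 to 1207 TPM against 134 to 355 TPM (3.12, adjusted p = 0.000169), and *Slc39a4*, a zinc importer, 384 to 585 TPM against 109 to 220 TPM (2.68, adjusted p = 0.000136). In the in vitro spheroids *Tm4sf4* had 1449 and 1058 TPM and *Slc39a4* 153 and 233 TPM. For these 3 genes every explant was above every preparation in TPM, and all were called higher on both scales.

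*Tstd1*, a sulfurtransferase of the rhodanese type, had 272, 285, 208, 425 and 453 TPM against 180, 13.7 and 136 TPM (3.14 ± 0.71, SE, adjusted p = 0.00766). Without hepatocyte preparation 2 the difference was 2.00, and without preparation 1 it was 3.79. *2010003K11Rik*, whose function is not given, had 142 to 292 TPM against 36.1 to 155 TPM (2.46, adjusted p = 0.00233). Preparation 2 was the lowest of the 3 for *Tstd1*, *Cib3*, *Hsd17b13* and *Apoa4* alike, and all 4 were higher in the livers than in that preparation.

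**Figure D5:**
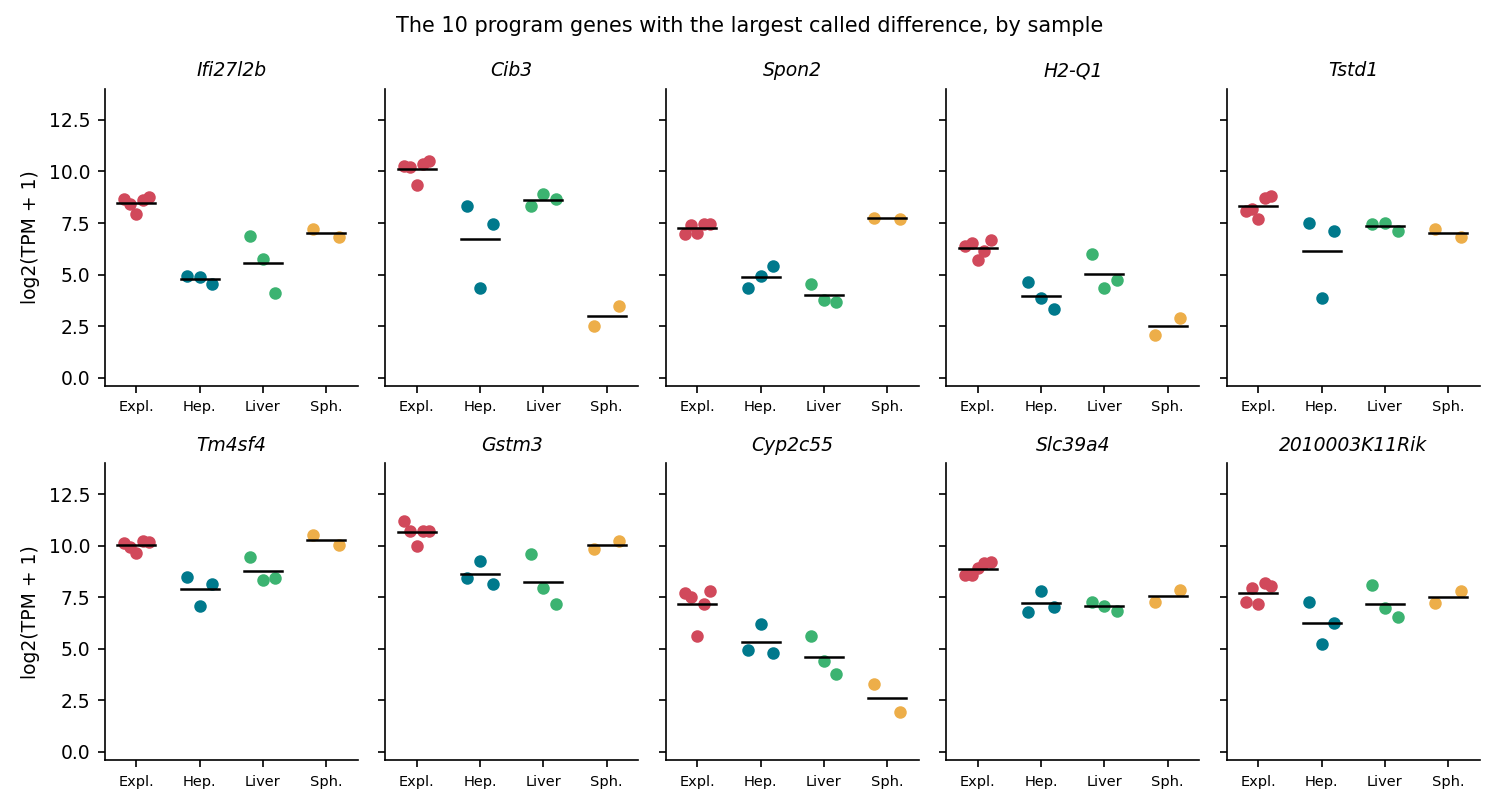
The 10 program genes with the largest called difference, as log2(TPM + 1) in each explant, hepatocyte preparation, liver and in vitro spheroid; the black bar is the group mean. Explants are the high group in most panels, and one hepatocyte preparation is far below the other two for *Cib3* and *Tstd1*.

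Hepatocytes are known to switch on immediate early genes while they are isolated. *Fos*, a subunit of AP-1, had 215, 502 and 341 TPM in the hepatocyte preparations, 61.7, 18.4, 36.4, 110 and 30.1 TPM in explants and 4.15, 2.99 and 2.52 TPM in livers. Every explant was below every preparation in TPM. On the program scale, where the groups overlapped, the explants were called lower (-1.94 ± 0.61, SE, adjusted p = 0.0306), but the call was lost without any one of the 3 preparations (adjusted p = 0.0515, 0.124 and 0.0953) and without explant 6 (0.0504), and with larger iris shares (0.0543 by least squares). Of 6 immediate early members *Fos* was the only gene called. They ranged from -1.94 to 1.70, with a median of -0.81, against a median of -2.84 in the livers. The highest, *Atf3*, had 191, 134, 119, 101 and 62.2 TPM in explants and 15.3, 189 and 113 TPM in hepatocytes, with overlapping groups.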

How the data were processed

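RNA of each sample was sequenced by the authors with Smart-seq3 in 3 technical libraries. The authors deposited counts per gene (TopHat2, SAMtools and featureCounts on mm10, per the labels, without strand), in which a read over overlapping genes counts for each and reads with several positions are left out, and TPM made from the summed counts, which matched a recalculation for 100% of values within 0.1%. Duplicates had been removed before counting; UMI-tools is named for this step in the study's reporting form. The deposited tables after the authors' own iris correction were not used. From TPM, iris was removed as (TPM - F × mean iris TPM)/(1 - F), with negatives set to 0; the iris shares F came with the definition of the gene set. log2(TPM + 1) was fitted with limma (3.58.1, R 4.3.3, empirical Bayes with trend) over 22612 genes with a mean of at least 1 TPM in either group, Benjamini-Hochberg adjusted over all, and called at an adjusted p under 0.05 and a log2 difference over 1. edgeR (4.0.16) was fitted to counts of program genes as an alternative. The fit was tested on simulated data, in which fewer of the genes lowered by a given amount than of those raised by it were called. Counting intervals and floors cover counting error only.

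Named are the 10 largest and 10 smallest called differences without overlap, the 10 most abundant members and up to 4 genes per list (highest level, largest and smallest difference, best known member); others are marked in the text, and some genes that the rule gives are left out. The members and lists were chosen with earlier results of these data known. The values of 1 named gene are not reported here.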

Additional observations from a re-analysis of the deposited data

Results flagged for a closer look

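In 7 of 89 sets of explant values examined, 1 explant lay so far from the other 4 that its gap to the nearest was over 0.71 of the whole range; chance alone does this in about 1 of 20. Explant 1, which has the lowest program level and the largest iris share, was the distant one in 6 of the 7. It was high for *Scd1* (gap 0.799 of the range, program-scale level 5.44 against a median of 4.32), *Kng2* (0.739, 3.10 against 2.48) and *C3* (0.712, 5.54 against 4.65). It was low for *Sult2a8* (0.719, -5.85 against -1.13), *Cyp4a12a* (0.734, -5.33 against -0.44) and the median of the male-biased list (0.770, -1.76 against -1.07). These levels are relative to each explant's own program median, which was 5.85 in explant 1 and 6.38 to 6.65 in the others. In TPM explant 1 stood closer to the others. It was the highest for *Scd1*, at 2498 against 1627 to 1993 in the others, and for *C3*, at 2675 against 1795 to 2390. For *Kng2* it lay within their range, at 495 against 440 to 500 TPM. Explant 2 was high for *Mup17* (0.729, -3.71 against -6.38), where the other 4 explants were at 0 TPM.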

How the results depend on the processing

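Against 11 members higher and 219 lower on the TPM scale (median -0.83) and 113 and 78 on the program scale, the counts moved by over 1.5 times, or the median by more than the spread of the explants, as follows. With the iris share by least squares, 20 were higher and 130 lower on the TPM scale; with every share raised by 0.05, 21 and 127 (median -0.53); with every share lowered by 0.05, 329 were lower; before subtraction, 1 was higher and 710 lower (median -2.44). With iris under 2% of hepatocytes there were 3 higher and 128 lower in TPM, and 53 and 46 on the program scale, out of 393 genes; with hepatocytes at 50 TPM or more, 7 and 66 higher, out of 555. Members chosen on the livers, which leaves the hepatocyte preparations out of the choice, gave 34 higher in TPM; on the program scale the counts stayed within 1.5 times, at 127 and 70. limma without trend gave 7 higher in TPM, and no fold limit 24 and, on the program scale, 185. edgeR gave 66 (TMM) and 59 (RLE) higher on the program scale. Except where the alternative itself has fewer genes, another share or no fold limit, the cause was not tested.

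Leaving out 1 sample gave 9 to 17 higher and 107 to 231 lower in TPM (medians -0.89 to -0.73), and 88 to 122 higher and 37 to 91 lower on the program scale. Samples numbered 1 and 2 in both groups are not labelled as sharing an origin, and their deviations correlated at -0.0071 and -0.218, against -0.286 to 0.278 for samples of different number. With the number as a replicate block these 4 samples gave 15 higher and 177 lower in TPM and 100 and 51 on the program scale; the same samples without pairing gave 4 and 32, and 67 and 26. Restricting the set to protein-coding genes, an alternative chosen after seeing the data, gave 92 higher and 55 lower on the program scale.

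Of 61 named genes, *Cyp2e1*, *Ghr* and *Hnf4a* changed sign, none of them called: *Cyp2e1* to -0.18 with read starts undone, -0.10 without explant 4 (other omissions up to 0.41) and -0.025 in samples 1 and 2 with or without the replicate block; *Ghr* to 0.037 before subtraction; *Hnf4a* to -0.18 and -0.22 in edgeR. Over all alternatives the 61 genes kept direction and call in 1696 refits, lost a call in 48 and gained one in 18. In the explants depth limits the low end: 39 members were at or under 3 counts or at 0 in every explant.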
